A study of Mus musculus with 20 samples.

Results

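The genes described here are 9 genes known for their use in B lymphocytes: Ms4a1, Cd79a, Cd79b, Pax5, Fcmr, Cr2, Cd22, Blk and Fcer2a. They were taken by gene symbol from 32081 genes with FPKM values (fragments per kilobase of gene and per mega, M, of assigned reads), each symbol matched 1 gene, and all 9 were among the 16848 genes tested. RNA came from the aortic endothelium of 20 female Apoe-/- mice (strain B6.129P2-Apoetm1Unc/J) on chow, all with 5/6 nephrectomy, a surgery that leaves too little kidney tissue and models chronic kidney disease. Surgery was done at 9 weeks of age, 1 retro-orbital injection followed 7 weeks later and the aorta was collected 1 week after that. Treatment was given to 5 groups of 4 mice: HDL with both inhibitors (called dual here), HDL with LNA92a, HDL with LNA489, HDL alone, or saline. The inhibitors are oligonucleotides with locked nucleic acid bases, LNA92a against miR-92a-3p and LNA489 against miR-489-3p. Each was given at 20 mg/kg, so dual mice received 40 mg/kg in total, and every HDL dose was 4 mg. Apoe is inactive in all cells of all groups, saline included, and no group had intact kidneys, so none serves as a healthy baseline. A library is called by its group and the number of its mouse, and both single-inhibitor groups, LNA92a and LNA489, had HDL as well.

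B cells recognise antigen through the B cell receptor, a membrane immunoglobulin that signals through the paired chains encoded by Cd79a and Cd79b. Their identity is kept by the transcription factor Pax5, and coreceptors such as the complement receptor Cr2 raise or, like the inhibitory lectin Cd22, lower the signal. In the arteries of Apoe-/- mice, B cells are known mainly from the adventitia, from tertiary lymphoid tissue beside the vessel and from lymph nodes in the surrounding fat, not from the endothelial layer.

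3 promoter windows show the sequence letters of members that moved together across libraries (Cd79a and Cr2) and of the member that departed from them (Cd22). Windows of 250 bases before to 50 after an annotated start were found in RefSeq (GRCm38.p6) for 6 of the 9 members, Cd79a, Pax5, Fcmr, Cr2, Cd22 and Fcer2a. On both strands, 4 motifs were searched: the octamer ATTTGCAT, the EBF motif (TCCC and GGGA with any 2 bases between them), the E-box CAGGTG and the PU.1 motif GAGGAAGT. None contains another. Capitals mark the matches.
Cd79a, chr7:24897247-24897546, plus strand: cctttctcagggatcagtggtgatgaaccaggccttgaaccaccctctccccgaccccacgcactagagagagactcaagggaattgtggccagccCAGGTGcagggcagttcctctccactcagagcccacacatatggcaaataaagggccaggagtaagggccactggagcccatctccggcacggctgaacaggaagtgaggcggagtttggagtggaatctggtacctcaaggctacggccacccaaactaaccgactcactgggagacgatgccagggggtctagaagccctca
Cr2, chr1:195176670-195176969, minus strand: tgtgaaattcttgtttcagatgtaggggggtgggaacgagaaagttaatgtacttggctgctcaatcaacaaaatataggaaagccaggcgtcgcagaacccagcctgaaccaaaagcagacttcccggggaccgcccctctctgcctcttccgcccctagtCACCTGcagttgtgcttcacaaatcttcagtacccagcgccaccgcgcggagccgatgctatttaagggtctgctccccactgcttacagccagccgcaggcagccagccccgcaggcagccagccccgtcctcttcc
Cd22, chr7:30878979-30879278, minus strand: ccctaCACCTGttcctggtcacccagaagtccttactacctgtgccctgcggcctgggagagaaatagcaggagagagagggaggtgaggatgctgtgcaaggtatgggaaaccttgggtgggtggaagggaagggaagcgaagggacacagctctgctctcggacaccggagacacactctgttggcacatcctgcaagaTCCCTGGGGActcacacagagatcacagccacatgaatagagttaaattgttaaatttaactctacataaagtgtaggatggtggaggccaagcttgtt

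The E-box letters began 154 bases before the start in Cd79a, 88 before it in Cr2 and 245 before it in Cd22, where they read CACCTG in 2 of the windows because the match lies on the opposite strand. They were also present in windows of Fcmr and Fcer2a, so that 5 of the 8 member windows held them. The window of Pax5, which moved most closely with Cd79a, held none of the motifs. Cr2 moved less closely with Cd79a, at a Pearson r of 0.88 over the 20 libraries and 0.71 without HDL 11. Of all 32851 RefSeq windows of that length, 20.2% hold the E-box letters. The EBF letters occurred in the Cd22 window alone among members, 49 bases before the start, and in 0.904% of all windows. The octamer and PU.1 letters were in none of these member windows and in 1.74% and 3.2% of all windows. Whether any of these letters bear on the levels across libraries was not tested.

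Assigned reads numbered 11.6 to 21.4 M per library. All 10 endothelial marker genes, among them Pecam1, Cdh5 and Vwf, were detected in every library, but their summed FPKM ranged from 64.0 in HDL 4 to 2145 in HDL 23. Their median sum was 537, below those of 7 adipocyte genes (1111), 6 adventitial fibroblast genes (938) and 10 macrophage genes (1944). That of 5 smooth muscle genes was 57.5. The share of each cell type in the RNA was not tested. The 1 library that stands apart for the B cell genes is HDL 11: it was the highest of the 20 for all 9 members, and for 25.6% of all tested genes. Its summed endothelial FPKM was 267, rank 12 of 20, and its macrophage sum was 1304, rank 15. Its adipocyte sum was 152, rank 15, and its adventitial fibroblast sum 247, rank 16. Its T cell sum of 359 FPKM was also the highest (median 117). Glycam1, a mucin made by lymph node venules, was highest there too, at 98.7 FPKM. The median of Glycam1 was 0.069, with 10 libraries listed at 0. Of the other lymph node stroma and vessel genes, Prox1 was also highest in HDL 11 (2.07 FPKM, median 0.49). Chst4 (3.11, median 8.63) and Lyve1 (6.11, median 22.2) were instead below their medians there. The part of these other genes in the results on the B cell genes was not tested. In bulk RNA, more B cells and more RNA per B cell cannot be told apart. Each comparison between 2 groups that uses HDL 11 is therefore given with and without it.

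The 9 genes together took 2800 reads per M in HDL 11. The next library, LNA92a 17, had 343 per M, followed by LNA489 13 with 277, Dual 21 with 251, Saline 9 with 225 and LNA489 14 with 209.5. The lowest was HDL 4 with 33.5. The HDL group therefore held both the highest and the lowest library, and each of the other 4 groups also held a low library: 74.8 per M in Dual 8, 48.1 in LNA92a 18, 46.9 in LNA489 7 and 66.6 in Saline 2.

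Values are given per library, in the order of mouse numbers 8, 10, 15 and 21 for dual, 5, 12, 17 and 18 for LNA92a, 7, 13, 14 and 19 for LNA489, 3, 4, 11 and 23 for HDL, and 1, 2, 9 and 24 for saline. Gene positions are those of GENCODE M21 on GRCm38. Of the receptor chains, Cd79a (chr7:24897381-24902197) measured 4.19, 7.07, 12.5 and 16.0 FPKM in dual libraries, 5.61, 7.22, 26.3 and 2.30 in LNA92a, 1.97, 13.3, 17.4 and 14.1 in LNA489, 4.00, 3.49, 187 and 11.4 in HDL, and 8.20, 3.16, 10.0 and 2.06 in saline. HDL 11 was the only library above 26.3 FPKM, and the other 3 HDL libraries lay within the range of the other groups. Its partner Cd79b (chr11:106311341-106314762) ranged from 3.70 FPKM in Saline 24 to 31.7 in LNA92a 17 over 19 libraries and reached 198 in HDL 11. Per length, Cd79a was below Cd79b in most libraries: the Cd79a to Cd79b FPKM ratio had a median of 0.66. It ran from 0.20 in LNA489 7 to 1.13 in Dual 15.

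Ms4a1 (chr19:11249675-11266241), which encodes the surface protein CD20, measured 0.756, 2.21, 2.12 and 2.98 FPKM in dual libraries, 2.45, 2.61, 8.21 and 0.626 in LNA92a, 0.423, 6.45, 5.40 and 2.85 in LNA489, 0.877, 0.620, 61.1 and 4.66 in HDL, and 2.20, 1.39, 2.86 and 1.59 in saline. Saline libraries lay closest together, within 1.39 to 2.86 FPKM, while the LNA92a and LNA489 groups each held both a low and a high library. The groups overlapped.

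Pax5 (chr4:44524757-44710487), the transcription factor of B cell identity, measured 1.01, 0.968, 1.44 and 3.23 FPKM in dual libraries, 1.67, 1.33, 7.14 and 0.719 in LNA92a, 0.865, 2.39, 3.30 and 3.06 in LNA489, 0.640, 0.774, 54.3 and 2.22 in HDL, and 1.61, 0.750, 1.77 and 0.921 in saline. LNA92a 17 stood above its own group as HDL 11 did above its. The kinase gene Blk (chr14:63372836-63417037), a Src family member of the receptor pathway, ranged from 0.256 FPKM in Saline 24 to 5.60 in LNA92a 17 over 19 libraries and was 45.6 in HDL 11.

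Cr2 (chr1:195136811-195176716), which in mice encodes both complement receptors of mature B cells, CD21 and CD35, measured 1.36, 1.99, 0.501 and 2.42 FPKM in dual libraries, 0.658, 1.53, 4.75 and 0.509 in LNA92a, 0.614, 2.27, 2.14 and 1.63 in LNA489, 0.629, 0.527, 55.0 and 1.07 in HDL, and 0.770, 0.409, 1.91 and 1.35 in saline. It had the largest step of the 9 between HDL 11 and the next library, 11.6-fold. Fcer2a (chr8:3681737-3694175), the low-affinity IgE receptor CD23 of follicular B cells, measured 0.366, 1.94, 1.15 and 3.50 FPKM in dual libraries, 0.223, 1.44, 6.38 and 0.835 in LNA92a, 0.268, 3.52, 3.47 and 2.52 in LNA489, 0.838, 0.142, 67.2 and 1.90 in HDL, and 2.39, 0.635, 2.44 and 1.23 in saline. The 3 lowest libraries for Fcer2a, HDL 4, LNA92a 5 and LNA489 7, came from 3 groups and rest on 7, 8 and 13 reads. Fcmr (chr1:130865669-130880791), a receptor for the Fc part of IgM, ranged from 0.434 FPKM in HDL 4 (12 reads) to 15.6 in LNA92a 17 over 19 libraries and was 141 in HDL 11.

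Cd22 (chr7:30865402-30880342), an inhibitory receptor that binds sialic acid, followed another order. It measured 6.21, 13.5, 4.58 and 17.8 FPKM in dual libraries, 1.81, 2.52, 9.10 and 3.43 in LNA92a, 1.56, 23.5, 5.26 and 4.37 in LNA489, 5.70, 0.474, 74.3 and 5.60 in HDL, and 2.32, 5.51, 25.6 and 9.43 in saline. HDL 11 was again highest, but by 2.90-fold, the smallest step of the 9, and the next libraries were Saline 9 and LNA489 13. For the other 8 members the library after HDL 11 was LNA92a 17. Ms4a1, Pax5 and Cd22 are overlapped by other annotated genes, some on the opposite strand, and the strand setting of the counting is not given in the sources used here, so reads of those partners may be included.

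**Figure D1:**
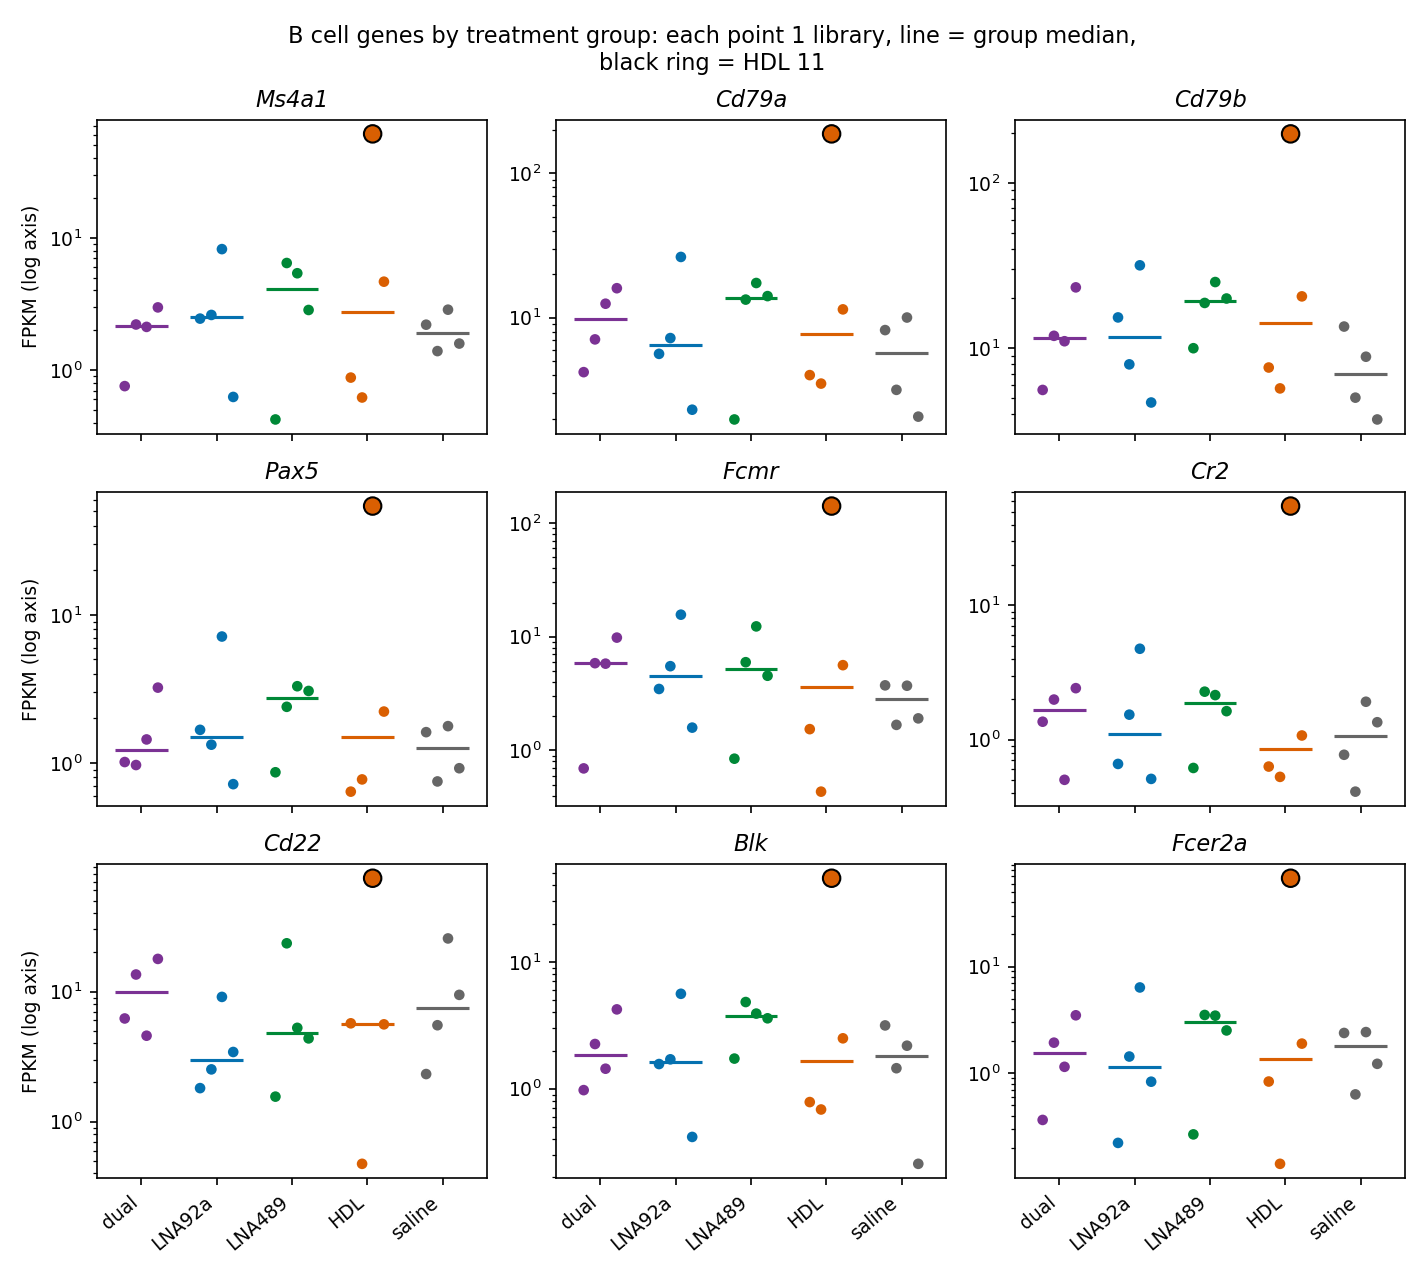
FPKM of the 9 B cell genes on log axes, 1 point per library and a line at each group's median, in the order dual, LNA92a, LNA489, HDL and saline (n = 4 each). HDL 11, ringed in black, is the highest point in all 9 panels, while HDL 4 is the lowest of all libraries for Fcmr, Cd22 and Fcer2a.

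By group median, LNA489 was highest for 7 of the 9 members and dual for Fcmr and Cd22. LNA489 had a median Cd79b of 19.4 FPKM and saline one of 6.95, and LNA489 had a median Ms4a1 of 4.12 FPKM and saline one of 1.89. The highest group median was 2.07 times the lowest for Fcmr, the smallest such ratio, and 3.31 times for Cd22, the largest. None of these orders separates groups: in all 90 combinations of a member and a pair of groups the FPKM ranges overlapped. Overlap does not set the members apart, because non-overlap was rare among all tested genes. In the deposited variance-stabilized log2 values it held for 0.344% to 1.56% of genes per direction in comparisons with HDL or saline. No share was computed in FPKM or for pairs of inhibitor groups. With HDL 11 left out, LNA489 and dual kept the highest medians for the same members, and the remaining 3 HDL libraries had the lowest median for 7 of 9. HDL 11 was the highest library for all 9, so leaving it out could only lower the HDL medians.

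For HDL against saline, no member passed limma's moderated test on the deposited variance-stabilized log2 values at a Benjamini-Hochberg adjusted p under 0.05, where 0% of all 16848 genes were called (281 genes had an unadjusted p under 0.05, members none). Log2 differences were 1.39 ± 0.75 (SE) for Cd79b, 1.25 ± 0.88 for Cd79a, 1.16 ± 0.91 for Pax5, 1.08 ± 0.94 for Cr2, 0.98 ± 0.97 for Fcmr, 0.89 ± 0.95 for Ms4a1, 0.86 ± 0.79 for Blk, 0.69 ± 0.98 for Fcer2a and -0.22 ± 0.94 for Cd22. The 95% intervals reached 1.58 to 2.06 to either side, and all 9 held 0. The median member lay at 0.98 and the median of all tested genes at 0.028. These signs rested on HDL 11, the highest library for all 9 members, so leaving it out could only lower the differences. Without it the median member was -0.29, only Cd79a (0.14 ± 0.67) and Cd79b (0.43 ± 0.57) lay above 0, and Cd22 was at -1.29 ± 0.80. The smallest adjusted p among members was 1.00 with HDL 11 and 0.999 without it. Cd79b alone had an unadjusted limma p under 0.05 in this comparison when another library was left out: its difference was then 1.84 ± 0.78 without HDL 3, 1.86 ± 0.78 without HDL 4 and 1.73 ± 0.81 without Saline 1. The unadjusted p from limma across all genes was 0.0312, 0.0278 and 0.0467 in that order, and the smallest adjusted p of these was 0.890. Groups that do not overlap were found for 0.629% of tested genes with HDL above saline and 0.344% with HDL below it, and for none of the members. Without HDL 11 these shares were 1.62% and 1.25%, again with no member.

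The 3 inhibitor groups were each compared with the same 4 HDL libraries, so their differences share HDL 11 and are not independent of each other. For dual against HDL, no member passed (0% of tested genes called, 416 under an unadjusted 0.05). Differences ran from -1.02 ± 0.95 for Ms4a1 to 0.40 ± 0.94 for Cd22, with a median of -0.74. For LNA92a against HDL none passed (0% called, 595 unadjusted), with values from -0.52 ± 0.98 for Fcer2a to 0.02 ± 0.97 for Fcmr and a median of -0.39. For LNA489 against HDL none passed either (0% called, 638 unadjusted); values ran from -0.55 ± 0.94 for Cr2 to -0.02 ± 0.79 for Blk, and the median was -0.41. The medians of all tested genes in these comparisons were -0.030, -0.056 and -0.047.

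Without HDL 11 all 9 members lay above 0 in each of the 3 comparisons. HDL 11 was the highest library for all 9, so leaving it out could only raise these differences. The signs are not independent, because the members moved together and the 3 comparisons share the same HDL libraries. In dual against the other 3 HDL libraries the median was 0.45 and the highest value Cd22, at 1.47 ± 0.80. In LNA92a the median was 0.81 and Fcmr was highest at 1.33 ± 0.69, and in LNA489 the median was 0.86 and Blk highest at 1.04 ± 0.56. None passed the test, with a smallest adjusted p of 1.00, 0.994 and 0.993 in the 3 comparisons, and all intervals held 0. All-gene medians were then -0.003, -0.024 and -0.002. Non-overlapping groups were found for no member with or without HDL 11, against 0.748% of tested genes above and 1.13% below in dual, 0.855% and 1.37% in LNA92a, and 0.415% and 1.13% in LNA489, all against HDL. Without HDL 11 the shares above and below were 1.66% and 2.59% in dual, 1.75% and 2.1% in LNA92a and 1.18% and 2.05% in LNA489.

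**Figure D2:**
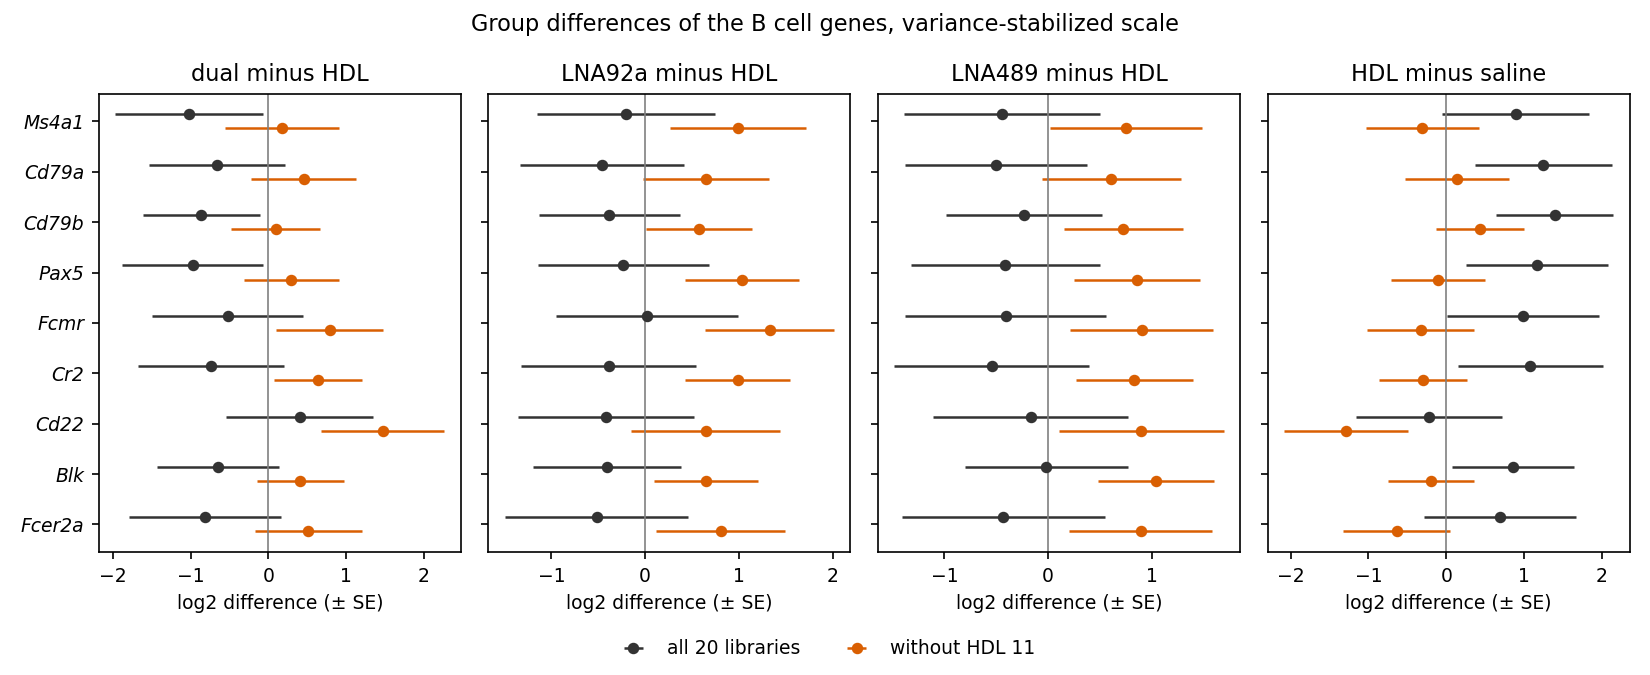
Log2 differences (± SE) of the 9 genes in dual, LNA92a and LNA489 against HDL and in HDL against saline, with all 20 libraries (dark) and without HDL 11 (orange). Without HDL 11 all 9 points lie to the right of 0 in the 3 inhibitor panels and 7 of 9 lie to the left of 0 in the HDL panel, where Cd22 lay left of 0 with HDL 11 too, and none passed the test in either setting. HDL 11 was the highest library for all 9 genes. Leaving it out could only move points right in the inhibitor panels and left in the HDL panel.

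The comparisons with saline do not use HDL 11. In dual against saline the members had a median of 0.21, from -0.13 ± 0.95 for Ms4a1 to 0.59 ± 0.88 for Cd79a, with 7 of 9 above 0. In LNA92a the median was 0.69, from -0.64 ± 0.94 for Cd22 to 1.01 ± 0.75 for Cd79b, and in LNA489 it was 0.57, from -0.39 ± 0.94 for Cd22 to 1.16 ± 0.75 for Cd79b, with 8 of 9 above 0 in each. No member was called in these comparisons, where 0% of tested genes were, and 177 genes for dual, 742 for LNA92a and 458 for LNA489 had an unadjusted p under 0.05. Groups did not overlap for 0.368% of tested genes above and 0.594% below saline in dual, 1.34% and 1.56% in LNA92a and 0.505% and 0.647% in LNA489, and for no member. The non-additive contrast, dual minus both single-inhibitor groups plus HDL, and the F-test over 5 groups use HDL 11 directly and called 0% of genes and no member, with 530 and 283 genes under an unadjusted 0.05 with HDL 11 and 425 and 277 without it. HDL 11 enters the comparisons with saline of dual, LNA92a and LNA489 only through the spread shared by all groups. Without it the SE of Cd79b in LNA489 against saline was 0.53, its 95% interval no longer held 0, and limma gave an unadjusted p of 0.042 and an adjusted p of 0.980.

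Across libraries 8 of the 9 genes moved together. Over the 20 libraries the 28 pairs without Cd22 had a median Pearson r of 0.91 on the variance-stabilized scale, from 0.83 (Cd79b and Cr2) to 0.96 (Cd79a and Pax5), with a median Spearman rho of 0.80. Over the 19 libraries without HDL 11 the median r was 0.81, from 0.63 to 0.91, and the median rho 0.76, with the same pairs at both ends. These points share library, depth and tissue makeup, and the values are descriptions. Subtracting each group's mean left a median of 0.92 over 20 libraries and 0.82 over 19, so the shared movement was also present within treatment groups. LNA92a 17, LNA489 13, LNA489 14 and Dual 21 stood high for most members, and HDL 4, LNA92a 18 and LNA489 7 low.

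Cd22 moved less closely with the others. Its 8 pairs had a median r of 0.63 over 20 libraries and 0.39 over 19, lowest with Cd79b at 0.49 and 0.16 and highest with Fcer2a at 0.76 and 0.61. Of the reads of Cd22 and Cd79a together, Cd22 took 31.9% in HDL 4 (exact binomial 95% interval 23.7 to 41.1), 57.8% in HDL 11 (56.9 to 58.8), 54.5% in LNA92a 17 (51.3 to 57.5) and 94.1% in Saline 24 (91.9 to 95.8). The intervals cover counting error only. In per-length terms, the Cd22 to Cd79a FPKM ratio ran from 0.14 to 4.57, and the Ms4a1 to Cd79a ratio from 0.17 to 0.77. The mature-cell receptors Cr2 and Fcer2a also shifted against Cd79a, as did its paired chain Cd79b, so such shifts are not particular to them. Cd79a took 16.7% of the Cd79a and Cd79b reads in LNA489 7 (12.5 to 21.7) and 53.6% in Dual 15 (49.7 to 57.4). Cr2 took 18.3% of the Cr2 and Cd79a reads in Dual 15 (14.8 to 22.2) and 78.4% in Saline 24 (71.6 to 84.2). Fcer2a took 7.77% of the Fcer2a and Cd79a reads in LNA92a 5 (3.41 to 14.7), 43.2% in HDL 11 (42.1 to 44.4) and 55.8% in Saline 24 (44.7 to 66.5).

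**Figure D3:**
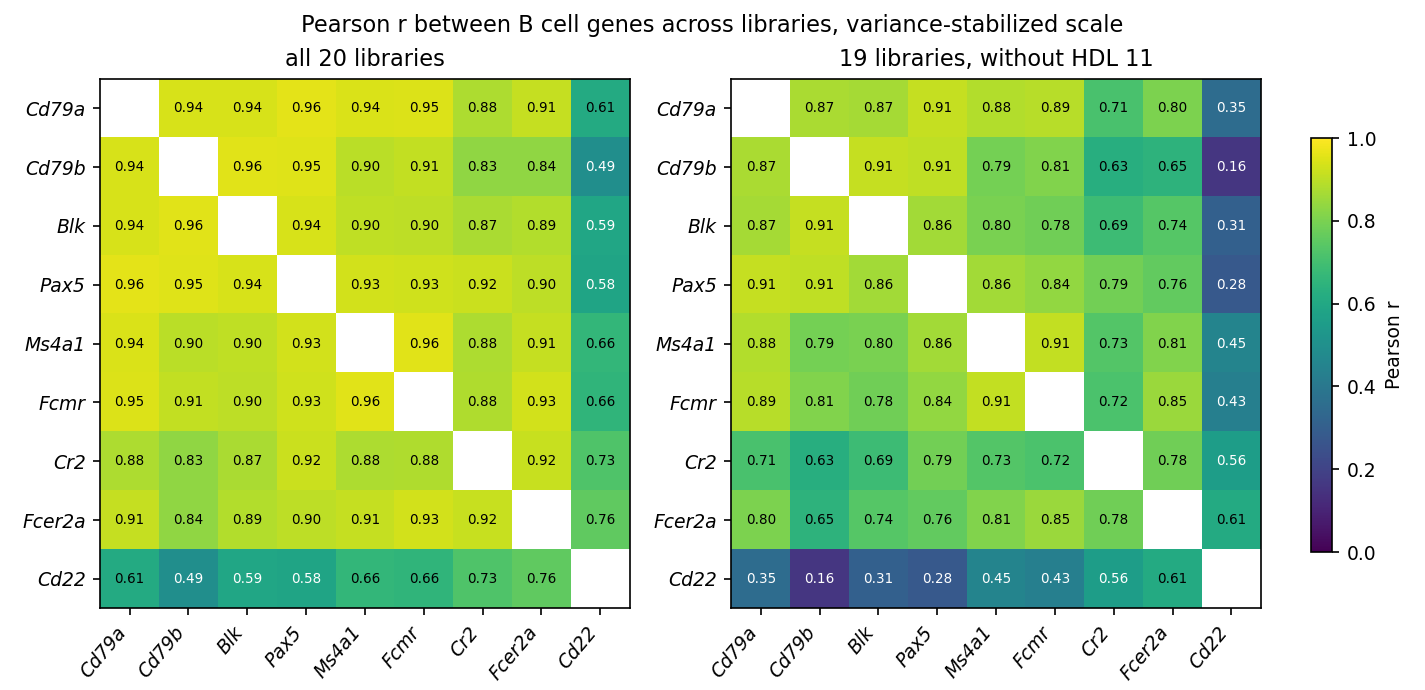
Pearson r between pairs of B cell genes on the variance-stabilized scale, over all 20 libraries (left) and over the 19 without HDL 11 (right), as shading and printed values. The Cd22 row is the lowest in both panels, with a median of 0.63 and 0.39, against 0.91 and 0.81 among the other 8 genes.

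**Figure D4:**
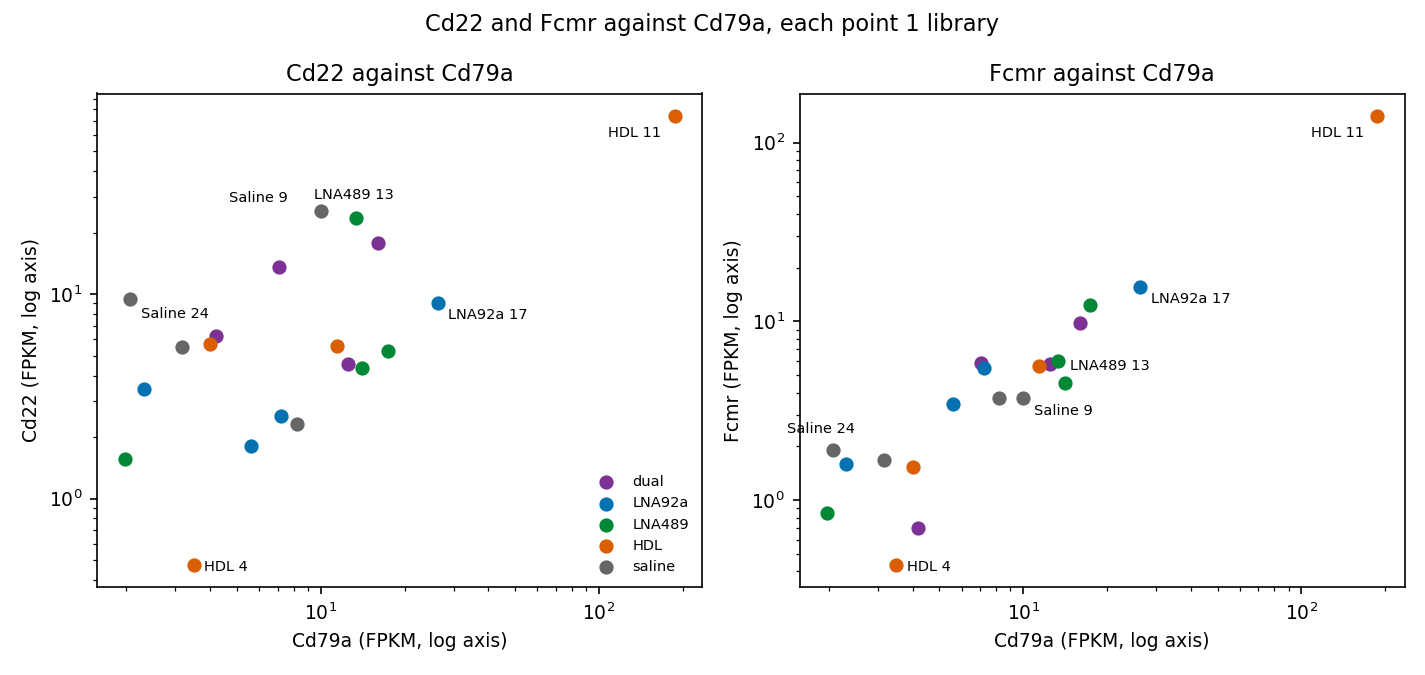
Cd22 (left) and Fcmr (right) against Cd79a in FPKM on log axes, 1 point per library, coloured by group. Fcmr rises along with Cd79a across the libraries, while Cd22 is spread over a wide range at any one level of Cd79a, with Saline 9, Saline 24 and LNA489 13 high for their Cd79a.

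The 10 genes most like the mean of the 9 members, immunoglobulin segments aside, were the same over 20 and over 19 libraries. They included H2-Ob (r of 0.98 and 0.96), a chaperone subunit of class II antigen loading in B cells, Pou2af1 (0.98 and 0.94), the octamer coactivator OBF-1, Siglecg (0.97 and 0.92), H2-DMb2, Gimap3, Ccr6, Gm43291, Cxcr5 and Tnfrsf13c. Tnfrsf13c, the receptor for the survival factor BAFF, measured 57.5 FPKM in HDL 11 against a median of 0.95. Cxcr5, which guides B cells to follicles, measured 41.2 FPKM in HDL 11 against a median of 1.65. Both rankings drew on the genes with a mean FPKM of at least 0.5 over all 20 libraries, HDL 11 included. Gm43291 measured 7.44 FPKM in HDL 11 against a median of 0.30. The match of the 2 rankings is therefore not independent of HDL 11. Cd22 alone, a choice made after its values were seen, was most like Hvcn1 (0.95 over 20 libraries and 0.93 over 19), Sorl1 (0.94 and 0.92), Syk (0.93 and 0.91) and Irf8 (0.92 and 0.88) over the 20 libraries.

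The other lists of B cell genes were described beside the members, and no gene of any list passed in any comparison. Among 14 receptor signalling genes, 11 were highest in HDL 11. With HDL 11 left out, their mean had an r of 0.51 with the mean of the 8 members other than Cd22 and of 0.93 with Cd22, and over all 20 libraries of 0.76 and 0.95. Pik3ap1, an adaptor for PI3 kinase, reached 64.1 FPKM in HDL 11 and 67.3 in Saline 9, Lyn, a Src family kinase, 49.9 and 45.9, and the phosphatase Ptprc (CD45) 96.5 and 44.9. Cd81, a tetraspanin, was lowest in HDL 11 at 35.4 FPKM, against a median of 51.8. Pik3ap1, Lyn, Ptprc and Cd81 were the highest of the list by mean FPKM. Over 19 libraries their r with the 8 members was 0.18, -0.006, 0.41 and -0.14 in that order. The part of cells other than B cells in the values of this list was not tested. The 9 inhibitory receptor genes had an r of 0.52 with the 8 members and 0.91 with Cd22 over 19 libraries. On this list, the phosphatase Ptpn6 (SHP-1), itself not a receptor, reached 124 FPKM in HDL 11 and 47.5 in Saline 9. Fcgr2b and Pirb, which myeloid cells also use, were highest in LNA489 13 (26.5) and Saline 9 (48.4).

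Lists nearer to the 8 members were the immunoglobulin constant genes (r of 0.93 over 19 libraries, 11 of 11 tested genes highest in HDL 11) and the B cell transcription factors (0.91, 10 of 11). In HDL 11 Igkc was at 4222 FPKM and its median was 149; the same pair of values was 1590 against 87.5 for Ighm, 781 against 7.12 for Ighg2c and 240 against 8.60 for Ighd. Of the factors, Ikzf1 measured 92.1 FPKM in HDL 11 against a median of 14.4, while Foxo1, which many tissues use, measured 30.2 against 13.6. The list of survival and homing receptors (0.81, 8 of 10) also held Ltb, a lymphotoxin chain and so a ligand, at 137 FPKM in HDL 11 against 7.42. Antigen presentation and other surface genes (0.75, 10 of 11) included Cd74 at 2170 against 504 and H2-Ab1 at 414 against 103.

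Genes of B cell stages differed among themselves. The plasma cell gene Jchain, the joining chain of secreted IgM and IgA, was 125 FPKM in HDL 11 against a median of 4.40, but Xbp1 was 38.3 against 38.6 and Sdc1 4.42 against 5.54. The plasma cell list had an r of 0.61 with the 8 members over 19 libraries, the germinal centre list 0.54 and the marginal zone and B-1 list 0.43. In the germinal centre list, Mki67 was 49.9 FPKM in HDL 11 against 7.86 and Bcl6 14.6 against 6.54, and Fas was at its median, 13.4 against 13.3. The list of B cell progenitor genes had an r of -0.06, which rests on its 3 tested genes, Rag1, Rag2 and Dntt. Without HDL 11 these had an r of 0.92, 0.94 and 0.96 with the T cell coreceptor gene Cd8b1. In the same order the r was 0.82, 0.88 and 0.92 with Cd4 and 0.78, 0.86 and 0.91 with Cd3e, 2 other T cell genes. The r of the list is therefore not particular to B cell progenitors. Vpreb1, a surrogate light chain gene that was not tested, was listed at 0 in 14 libraries. Rag1 was 22.4 FPKM in HDL 11 against a median of 45.4. Ligands for B cells had an r of 0.06, and the follicular chemokine Cxcl13 was 21.4 FPKM in HDL 11 against a median of 20.3.

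Lists of other cells were set beside the 8 members and Cd22, again over 19 libraries. The T cell list had an r of 0.30 with the 8 members and 0.53 with Cd22. The macrophage list had -0.31 and 0.41, the endothelial list 0.05 and 0.59, the adipocyte list -0.07 and -0.71, and the adventitial fibroblast list -0.03 and -0.69. The plasmacytoid dendritic cell list had 0.20 and 0.39, the follicular dendritic cell list 0.00 and 0.62, smooth muscle 0.05 and 0.08, and lymph node stroma and vessel 0.11 and -0.58. The follicular dendritic cell list was led by Clu and Mfge8, with mean FPKM of 207 and 117. Clu was highest in HDL 23, as was the endothelial sum, and Mfge8 in LNA489 13, as was the macrophage sum. Whether this list reflects follicular dendritic cells was not tested. Over all 20 libraries the r with Cd22 was 0.62 for the T cell list, 0.018 for macrophage, 0.40 for endothelial, -0.69 for adipocyte, -0.71 for fibroblast, 0.61 for plasmacytoid dendritic, 0.41 for follicular dendritic, -0.08 for smooth muscle and -0.35 for lymph node stroma and vessel. The r of Cd22 with the macrophage list was thus near 0 with HDL 11 kept, while those with the adipocyte and fibroblast lists moved little. For the other 8 members the r with these lists stayed between -0.31 and 0.30 over 19 libraries, and over 20 it ran from -0.55 for macrophage to 0.58 for plasmacytoid dendritic cells. The part of these cell lists in the values of Cd22 was not tested. The summed macrophage FPKM ranged from 2934 to 8589 in dual, 600 to 1951 in LNA92a, 1072 to 10623 in LNA489, 887 to 3053 in HDL and 1440 to 8009 in saline, and the summed T cell FPKM from 59.0 to 267, 27.3 to 121, 33.3 to 188, 11.1 to 359 and 44.8 to 320 in the same groups.

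**Figure D5:**
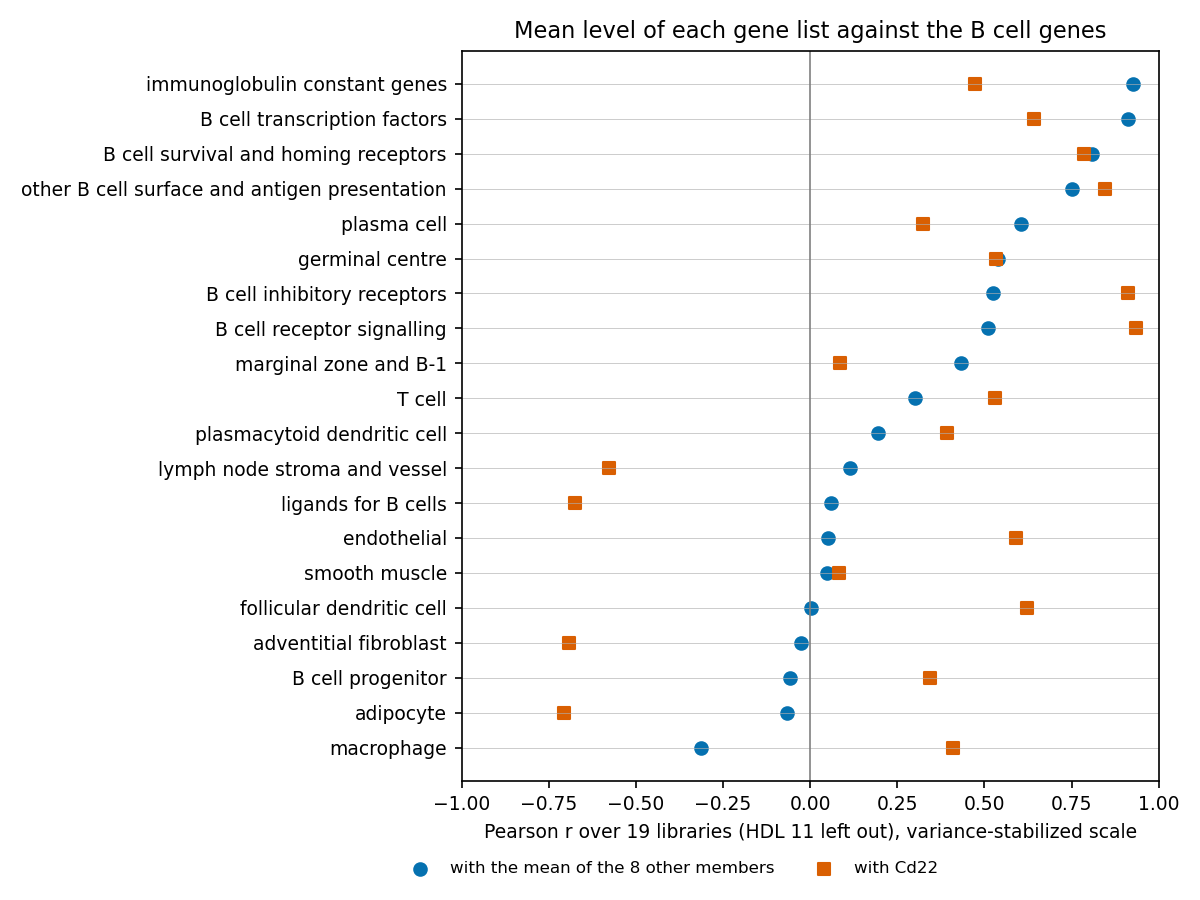
Pearson r over 19 libraries (HDL 11 left out) between the mean level of each gene list and either the mean of the 8 members other than Cd22 (circles) or Cd22 (squares), on the variance-stabilized scale. Circles are highest for the immunoglobulin constant genes (0.93) and the B cell transcription factors (0.91), and squares for receptor signalling (0.93) and inhibitory receptors (0.91).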

How the data were processed

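RNA-seq of aortic endothelium from 20 mice was used, 4 per group; GEO's labels give 4 biological replicates per group, and each library carries its own animal number. The authors deposited variance-stabilized log2 values for 20442 genes and FPKM values for 32081 genes. The submitters' processing notes name cutadapt 1.16, STAR 2.5.3a, FastQC, featureCounts 1.15.29, DESeq2 1.18.1 and the build GRCm38.p5, without roles; the strand setting is not given in the sources used here. FPKM times gene length, scaled by 1 factor fitted per library, gave whole reads (within 0.1 of a whole number), which supplied depth, shares and counting intervals. The fit and the check used genes of up to 3000 bases and up to 1000 reads. Longer genes, among them Ms4a1, Pax5, Cr2, Cd22 and Fcer2a, were rounded to whole reads with the same factor and were not checked. The log2 values were tested with limma 3.58.1 in R 4.3.3 (moderated test with a mean trend, 5 group means, 15 residual degrees of freedom, 2-sided) on the 16848 genes with a mean FPKM of at least 0.5, with Benjamini-Hochberg adjustment and a threshold of 0.05. The procedure was tested on simulated data. The members and lists were chosen with earlier results of these data known. The rule for names took all members, up to 4 genes of each list by mean FPKM and the 10 genes most like the members, of which some are not reported here. Alternatives were log2(FPKM + 0.1), log2(FPKM + 1), limma-voom on the recovered reads, no filter, library weights, median centring and leaving out each library. Gene positions come from GENCODE M21 on GRCm38 and promoter windows from RefSeq. Python 3.11.15, scipy 1.17.1 and matplotlib 3.10.9 were used.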

Additional observations from a re-analysis of the deposited data

Results flagged for a closer look

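Each member's 4 FPKM values per group were checked for a highest or lowest library whose gap to the nearest other exceeds Dixon's 95% critical share of the group's range for 4 samples. For normally distributed values, chance flags about 1 in 20 such groups. On the FPKM scale 11 of 45 were flagged. The 45 checks are not independent, because members moved together in the same libraries and HDL 11 alone gave 9 of the flags. Their number therefore cannot be compared with 1 in 20. In the HDL group the library HDL 11 stood apart for all 9 members, at 61.1 FPKM for Ms4a1, 187 for Cd79a, 198 for Cd79b, 54.3 for Pax5, 141 for Fcmr, 55.0 for Cr2, 74.3 for Cd22, 45.6 for Blk and 67.2 for Fcer2a. In the LNA92a group LNA92a 17 stood apart for Pax5 at 7.14 FPKM. In the LNA489 group LNA489 13 stood apart for Cd22 at 23.5 FPKM. On the variance-stabilized scale 4 of 45 were flagged: HDL 11 as highest for Cr2, and LNA489 7 as lowest for Cd79a, Cr2 and Fcer2a.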

How the results depend on the processing

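No gene and no member was called in any of the 9 tests under any of 27 settings, with a smallest adjusted p among members of 0.409 (limma). Genes with an unadjusted p under 0.05 ranged over all settings from 213 to 3214 for dual minus HDL, 325 to 3208 for LNA92a minus HDL, 366 to 3169 for LNA489 minus HDL, 201 to 899 for HDL minus saline, 100 to 388 for dual minus saline, 272 to 1898 for LNA92a minus saline, 225 to 1462 for LNA489 minus saline, 307 to 2205 for the non-additive contrast and 224 to 1718 for the F-test. No paired analysis was possible because the groups share no animal numbers. Depth limits the lowest values, which rest on as few as 7 reads. The causes of the changes below were not tested.

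With library weights, signs turned for LNA92a minus HDL in Ms4a1 (0.27), Cd79a (0.17), Cd79b (0.098), Pax5 (0.58), Cr2 (0.55), Blk (0.20) and Fcer2a (0.14). They turned for LNA489 minus HDL in Ms4a1 (0.21), Cd79a (0.39), Cd79b (0.36), Pax5 (0.59), Fcmr (0.34), Cr2 (0.49), Blk (0.66) and Fcer2a (0.37), and for dual minus HDL in Cr2 (0.24). Fcmr in LNA92a minus HDL turned to -0.10 with log2(FPKM + 0.1), -0.36 with log2(FPKM + 1) and -0.063 with median centring. Blk in LNA489 minus HDL turned to 0.17 with log2(FPKM + 0.1) and 0.039 with limma-voom. Fcer2a in LNA92a minus saline turned to -0.26 with log2(FPKM + 0.1) and -0.018 with log2(FPKM + 1).

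The ranges that follow, from leaving out each library in turn, are for members whose sign turned. The difference dual minus HDL ranged from -1.66 to 0.18 for Ms4a1, -1.17 to 0.45 for Cd79a, -1.33 to 0.096 for Cd79b, -1.61 to 0.29 for Pax5, -1.26 to 0.79 for Fcmr, -1.26 to 0.64 for Cr2, -0.51 to 1.47 for Cd22, -1.12 to 0.41 for Blk and -1.54 to 0.51 for Fcer2a. LNA92a minus HDL ranged from -0.85 to 0.99 for Ms4a1, -1.07 to 0.65 for Cd79a, -0.88 to 0.58 for Cd79b, -0.88 to 1.04 for Pax5, -0.72 to 1.33 for Fcmr, -1.01 to 0.99 for Cr2, -1.33 to 0.65 for Cd22, -0.90 to 0.65 for Blk and -1.25 to 0.81 for Fcer2a. LNA489 minus HDL ranged from -1.09 to 0.75 for Ms4a1, -1.01 to 0.61 for Cd79a, -0.70 to 0.73 for Cd79b, -1.04 to 0.86 for Pax5, -1.14 to 0.90 for Fcmr, -1.07 to 0.83 for Cr2, -1.08 to 0.90 for Cd22, -0.49 to 1.04 for Blk and -1.16 to 0.89 for Fcer2a. HDL minus saline ranged from -0.31 to 1.53 for Ms4a1, -0.11 to 1.79 for Pax5, -0.33 to 1.72 for Fcmr, -0.29 to 1.61 for Cr2, -1.29 to 0.69 for Cd22, -0.20 to 1.33 for Blk and -0.64 to 1.42 for Fcer2a. Against saline, dual ranged from -0.30 to 0.15 for Ms4a1, -0.11 to 0.39 for Pax5, -0.26 to 0.68 for Cd22, -0.21 to 0.53 for Blk and -0.42 to 0.20 for Fcer2a, LNA92a from -0.044 to 0.87 for Blk and -0.50 to 0.61 for Fcer2a, and LNA489 from -1.001 to 0.11 for Cd22. Members whose sign held also moved: Cd79a ranged from 0.14 to 1.76 and Cd79b from 0.43 to 1.86 in HDL minus saline, Ms4a1 from 0.098 to 1.24 and Cr2 from 0.076 to 1.07 in LNA92a minus saline, and Fcer2a from 0.036 to 0.74 in LNA489 minus saline. Besides HDL 11, LNA489 7 turned the most members: without it 6 of 9 turned in LNA489 minus HDL.

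The median r of 0.91 for pairs without Cd22 was 0.81 without HDL 11, and 0.82 over 19 libraries with group means removed, a setting chosen after seeing the data. The median of 0.63 for pairs with Cd22 was 0.39 without HDL 11, 0.72 with group means removed and 0.45 with both.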

Other observations

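Genes of immature lymphocytes were read at high levels in several libraries and followed other genes than the B cell members. Rag1, part of the recombinase that assembles antigen receptor genes, measured 43.4, 47.3, 22.4 and 130 FPKM in dual libraries, 70.8, 12.7, 0.687 and 22.3 in LNA92a, 16.6, 89.8, 40.1 and 85.9 in LNA489, 78.1, 5.05, 22.4 and 53.5 in HDL, and 161, 19.3, 156 and 66.9 in saline. LNA92a 17, the library with the second highest B cell genes, was the lowest of all for Rag1. Over the 20 libraries, as descriptions on the variance-stabilized scale, Rag1 had an r of 0.96 with Rag2, 0.95 with Dntt, the polymerase that adds bases at receptor joints, and 0.86 with the T cell coreceptor gene Cd8b1. With the mean of the 8 members other than Cd22 it had -0.21, and Dntt had -0.05. Without HDL 11 these values of Rag1 were 0.96 with Rag2, 0.95 with Dntt, 0.92 with Cd8b1 and -0.17 with the mean of the 8 members, and that of Dntt with the mean was 0.030. With the T cell genes Cd4 and Cd3e, Rag1 had a lower r, 0.77 and 0.63 over the 20 libraries and 0.82 and 0.78 without HDL 11.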
